A study of Mus musculus with 32 samples.

Results

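Ribosome biogenesis was followed through 49 mouse genes that encode the nucleolar machinery, and all 49 were found by symbol among the 54532 genes of the authors' table. By role they comprised 6 genes of RNA polymerase I and its factor Ubtf, 4 of the box C/D particle and its chaperone, 4 of the box H/ACA particle, 4 abundant nucleolar proteins and helicases, 15 of the small subunit pathway and 16 of the large subunit pathway. The 32 libraries were each made from a single metaphase II egg or a single 2-cell embryo with SMART-seq, which copies poly(A) RNA along the whole transcript and does not mark the strand. There were 3 Trp53 KO eggs and 3 WT eggs, 6 Trp53 MZ-KO and 8 WT embryos at the early 2-cell stage (28 to 32 hours after the hCG injection), and 6 Trp53 MZ-KO and 6 WT embryos at the late 2-cell stage (48 hours). The knockout allele lacks exons 2 to 10 of Trp53, which encodes p53, and was made in the germline with Ddx4::Cre. MZ-KO embryos came from a KO mother and a KO father, while the WT animals were homozygous for the floxed allele. The mice were kept on a mixed Bl6/C57 background and embryos were cultured in KSOM medium. Animal ages and the number of females behind each group are not given in the labels, so p-values measure the spread between single eggs or embryos, some of which may share a mother.

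Ribosomes are built in the nucleolus, where RNA polymerase I transcribes the precursor of the large ribosomal RNAs. Box C/D and box H/ACA particles methylate and pseudouridylate that precursor, and the small subunit processome and the large subunit assembly factors fold, cut and export it with the ribosomal proteins. In the mouse the full-grown oocyte and egg carry compact nucleolus-like bodies that do not make rRNA, and nucleolar transcription starts again around the 2-cell stage, after the embryonic genome is switched on. Loss of ribosome assembly factors is a known route to p53 activation through ribosomal proteins that bind Mdm2.

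The unit was FPKM, reads scaled to the length of the gene and to the reads of the library, with the whole genomic span of a gene as its length. Between 7260000 and 27590000 reads stood behind a library's scale, with a median of 18350000. FPKM serves here to compare a gene with itself across libraries, and levels of different genes are set side by side only after rescaling to exon length. Of the 49 genes, 22 overlap another annotated gene, and their reads cannot be told apart without strand. Trp53 itself averaged 8.19 ± 1.75 FPKM in KO eggs and 7.86 ± 2.13 FPKM in WT eggs (SD, n = 3 each). At the early stage it averaged 0.769 ± 0.326 FPKM in 6 MZ-KO embryos, against 6.05 ± 2.64 FPKM in 8 WT embryos, and at the late stage 2.82 ± 1.38 FPKM in 6 MZ-KO and 3.24 ± 2.31 FPKM in 6 WT embryos (SD). It was called lower in MZ-KO early embryos (log2 difference -1.92, SE 0.25, adjusted p = 0.00126), while in late embryos the difference was -0.03 (adjusted p = 0.955) and in eggs it was not called. The value includes reads outside the deleted exons, yet it showed a loss in MZ-KO early embryos. No such loss was called in KO eggs or MZ-KO late embryos, so the value does not bear out their labels. The reason was not tested, and all groups are used here as labelled. Egg and oocyte markers summed to 2380 to 4200 FPKM in eggs, and none of 10 cumulus and granulosa markers reached FPKM 1 in any library. Of 8 blood and immune markers 2 reached FPKM 1 in late embryos, while Ptprc, Hbb-bt and Cd3e were at 0; their levels summed to 31.5 to 153 FPKM in MZ-KO late embryos and to 12.1 to 21.4 FPKM in WT late embryos, while markers of the 2-cell stage summed to 140 to 218 FPKM in MZ-KO and 188 to 313 FPKM in WT late embryos. Sperm markers, of which 2 of 8 reached FPKM 1, summed to 7.6 to 13.5 FPKM in MZ-KO and 10.1 to 28.7 FPKM in WT late embryos. The part of these 3 lists in the results below was not tested.

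Promoters of 4 members are shown first as examples. Nop16 and Polr1c had the largest rises between the WT embryo stages. Nop2 and Utp18 were among the members lower in MZ-KO late embryos, and were chosen after their motifs were seen, as the members with an E-box. The sequences run up to the annotated start, 5′ to 3′ along the gene, from the RefSeq table for build GRCm38.p6. Nop16 is chr13:54590091-54590324 (minus strand), Polr1c is chr17:46248055-46248295 (minus), Nop2 is chr6:125131633-125131882 (plus) and Utp18 is chr11:93885767-93886016 (minus). Bases past the first annotated transcript start were left out, 16 for Nop16 and 9 for Polr1c. Capitals mark the E-box CACGTG, the ETS letters CCGGAAG and the GC box GGGCGG on either strand.
Nop16: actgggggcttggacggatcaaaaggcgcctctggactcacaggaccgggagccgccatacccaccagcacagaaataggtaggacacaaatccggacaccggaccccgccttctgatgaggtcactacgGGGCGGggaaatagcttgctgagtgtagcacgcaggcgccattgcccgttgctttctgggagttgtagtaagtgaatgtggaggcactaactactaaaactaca
Polr1c: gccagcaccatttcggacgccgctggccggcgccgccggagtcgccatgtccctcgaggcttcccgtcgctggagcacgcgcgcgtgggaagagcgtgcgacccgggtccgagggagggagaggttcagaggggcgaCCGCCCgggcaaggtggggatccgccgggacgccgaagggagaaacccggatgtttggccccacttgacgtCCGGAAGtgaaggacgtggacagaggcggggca
Nop2: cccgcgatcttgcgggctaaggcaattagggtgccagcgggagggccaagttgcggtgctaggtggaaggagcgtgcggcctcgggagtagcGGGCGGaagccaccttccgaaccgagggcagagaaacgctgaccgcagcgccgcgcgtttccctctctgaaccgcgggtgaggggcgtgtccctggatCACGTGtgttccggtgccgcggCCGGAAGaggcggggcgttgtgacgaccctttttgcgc
Utp18: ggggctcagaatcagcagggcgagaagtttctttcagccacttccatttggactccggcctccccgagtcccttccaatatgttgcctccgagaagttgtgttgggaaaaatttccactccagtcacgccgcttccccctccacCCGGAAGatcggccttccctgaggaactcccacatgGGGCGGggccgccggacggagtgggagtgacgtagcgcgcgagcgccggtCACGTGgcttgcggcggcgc
Nop16 had 1 GC box and neither of the other motifs, Polr1c had 1 ETS match and 1 GC box, and Nop2 and Utp18 had 1 match of each of the 3. In the 250 bases before the start, CCGGAAG stood in 10 of 52 windows of the 42 members that had one, or 19.2%, against 6.91% of all 32851 windows. Those 10 members were Gar1, Ltv1, Nhp2, Nip7, Nolc1, Nop2, Polr1c, Utp18, Utp3 and Utp4. The E-box, which Myc and other factors bind, stood in 3.85% of member windows and 6.02% of all windows, in Nop2 and Utp18 alone among the members. GGGCGG stood in 67.3% of member windows and 32.7% of all windows. CCAAT stood in 25.0% and 33.8%, and GGATTA, a homeobox motif, in 11.5% and 6.25%. The NRF1 and YY1 motifs were in none of the member windows and in 0.782% and 0.606% of all windows. All motifs were read on both strands, and member windows had a median GC content of 59.2%, against 52.4% over all windows. A match describes letters and not a bound site, and no difference between the shares was tested.

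Summed over the 49 genes, the level was lowest in early embryos and highest in late embryos. Genes of high FPKM weigh most in such a sum, among them Nhp2 (186 ± 28.0 FPKM) and Nop10 (170 ± 26.4 FPKM) in WT late embryos (SD, n = 6). The sum was 335 ± 23.0 FPKM in KO eggs and 276 ± 26.0 FPKM in WT eggs (SD, n = 3 each). It was 202 ± 15.5 FPKM in 6 MZ-KO and 190 ± 13.6 FPKM in 8 WT early embryos. Late embryos held 1180 ± 111 FPKM in 6 MZ-KO and 1330 ± 151 FPKM in 6 WT (SD). Late embryos did not overlap the earlier stages, since the lowest late sum was 1015 FPKM and the highest egg sum 352.6 FPKM. With each gene rescaled to exon length, the lowest late sum was 2572 and the highest egg sum 843.3. Members at FPKM 1 or more numbered 30 to 31 in KO eggs, 27 to 30 in WT eggs, 25 to 28 in MZ-KO and 23 to 30 in WT early embryos, and 43 to 47 in MZ-KO and 44 to 47 in WT late embryos. Values in a library are relative to its own total, so fewer molecules in all and a smaller share for these genes cannot be told apart.

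**Figure D1:**
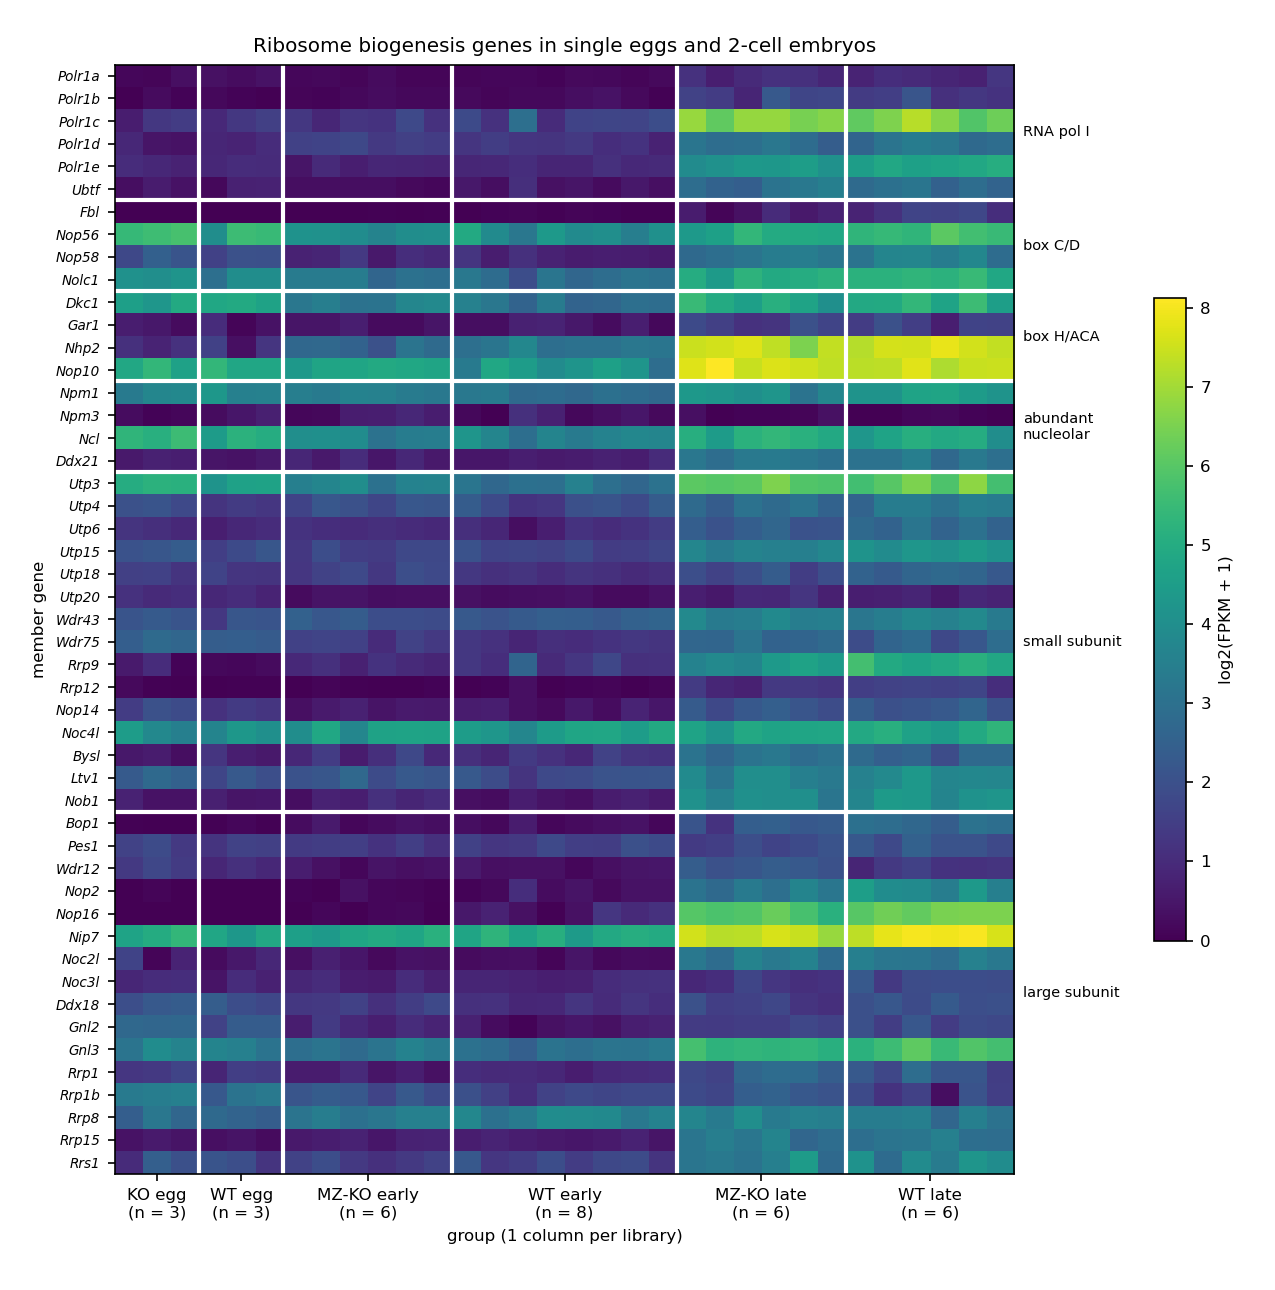
Each row is 1 of the 49 genes, ordered by role, and each column 1 library, with colour giving log2(FPKM + 1). The step to late 2-cell embryos is visible in nearly all rows, with Nhp2, Nop10, Nip7, Nop16 and Polr1c brightest there, and Fbl and Nop16 at 0 in all 6 eggs.

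Rescaled to exon length, the order of the members changed between stages. In WT eggs the highest exon-scaled levels were those of Dkc1, the pseudouridine synthase (92.4 ± 9.17), the histone chaperone Npm1 (54.7 ± 18.4) and the pre-rRNA-binding protein Ncl (42.6 ± 11.3, SD, n = 3), and the spread of Npm1 and Ncl overlapped. In WT late embryos the order was led by Nhp2, a core protein of the box H/ACA particle (645 ± 97.4). Below it stood Nip7, a large subunit assembly factor (291 ± 52.5), Nop16, another (260 ± 36.7), Nop10 of the box H/ACA particle (206 ± 31.9) and Polr1c, a subunit of RNA polymerase I and of RNA polymerase III (167 ± 58.9, SD, n = 6). The neighbours from Nip7 down lay within each other's spread. MZ-KO late embryos had the same gene in first place, with Nhp2 at 577 ± 141 (SD, n = 6), followed by Nop10 at 246 ± 50.1. The lowest levels in WT late embryos were those of Npm3 (0.0788), Wdr12 (3.30) and Fbl (3.66), on the same exon scale. Fbl, the methyltransferase of box C/D particles, was listed at 0 in all 6 egg libraries, as was Nop16. Npm3 has an annotated pseudogene copy and did not reach the filter in any comparison.

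The comparison of early 2-cell embryos with eggs in WT asks how poly(A) RNA of the pathway changed over fertilisation and the first division. Loss of stored RNA, a change in its poly(A) tail and new RNA cannot be told apart in it. Of 33 members that passed the filter (FPKM of 1 or more in a number of libraries equal to the size of the smaller group), 12 fell and 4 rose, with a median log2 difference of -0.14, against 0.15 over all 8619 genes tested. In all, 20.9% of genes fell and 30.4% rose in this comparison. Gnl2 and Nop14 passed the filter only through the eggs and Rrp9 only through the early embryos, so that they had to differ. Among the 30 members that reached FPKM 1 in 1 or more libraries of both groups, 10 fell and 3 rose, a share not computed over all genes. Nop58 is among the 30, yet it reached FPKM 1 in 2 early embryos and also needed the eggs to pass. Nhp2, another of the 30, reached FPKM 1 in 2 WT eggs and needed the early embryos to pass. The adjusted p given below for Nop58 and Nhp2 is from the filtered fit and is not free of that selection. For Gnl2, Nop14 and Rrp9 the adjusted p given below is from the fit without a filter. Calls are those of limma on log2(FPKM + 1) at a Benjamini-Hochberg adjusted p below 0.05 over all genes tested, and the pseudocount understates the change of low genes.

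Among genes of rRNA modification, Dkc1 had 4.99, 6.68 and 10.8 FPKM as the lowest, median and highest of 8 WT early embryos, and 27.8, 29.8 and 24.4 FPKM in the 3 WT eggs. The groups did not overlap, and the fall was 1.84 on the log2 scale (SE 0.22, adjusted p = 4.1e-05). Its partner Nhp2 moved the other way, with 6.63, 7.57 and 12.5 FPKM as the lowest, median and highest WT early embryo and 1.99, 0.263 and 1.39 FPKM in WT eggs. That rise was 2.10 (SE 0.25, adjusted p = 3.3e-05), again without overlap. All 3 tested box C/D genes fell, namely the scaffold proteins Nop58 (-1.08, adjusted p = 0.00031) and Nop56 (-1.03, adjusted p = 0.0393) and the chaperone Nolc1 (-0.78, adjusted p = 0.0417). The calls of Nop56 and Nolc1 were lost on leaving out single libraries, in 7 and 5 of 11 cases. Both tested abundant nucleolar proteins fell. Ncl averaged 11.6 ± 3.11 FPKM in WT early embryos and 29.6 ± 7.86 FPKM in WT eggs (-1.28, SE 0.24, adjusted p = 0.00095), and Npm1 averaged 6.81 ± 1.25 FPKM and 13.3 ± 4.49 FPKM (-0.85, SE 0.19, adjusted p = 0.00312, SD, n = 8 and 3).

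In the small subunit pathway, Utp3 had 5.40, 6.87 and 10.8 FPKM as the lowest, median and highest WT early embryo, against 16.9, 24.1 and 24.4 FPKM in WT eggs. Every WT early value lay below every egg value (-1.48, SE 0.19, adjusted p = 6.8e-05). Wdr75, which acts in early processome assembly and pre-rRNA transcription, fell by 1.24 on the log2 scale (adjusted p = 7.8e-06), and the processome factor Nop14 fell by 0.78 (adjusted p = 0.00288 without a filter). Rrp9, a protein of the U3 particle, rose to 1.85 ± 1.39 FPKM in WT early embryos, against 0.129 ± 0.0383 FPKM in WT eggs (1.23, adjusted p = 0.0211 without a filter). Part of its SD came from WT early library 3 at 5.13 FPKM, while the other 7 lay between 0.947 and 2.31 FPKM. Leaving out single libraries gave differences between 1.06 and 1.30. Wdr43 was also called higher (0.49, adjusted p = 0.0445), and median-ratio scaling of the libraries ended that call.

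In the large subunit pathway the GTPase Gnl2 had 0.045, 0.345 and 0.708 FPKM as the lowest, median and highest WT early embryo and 2.02, 4.15 and 4.14 FPKM in WT eggs (-1.64, adjusted p = 0.00034 without a filter). The groups did not overlap. Rrp1b fell by 1.20 on the log2 scale (adjusted p = 0.0011) and the helicase Ddx18 by 0.92 (adjusted p = 0.00034). Rrp8, which methylates an adenosine of the large rRNA, rose by 0.99 (adjusted p = 0.00235), with 11.3 ± 2.82 FPKM in WT early embryos and 5.07 ± 0.778 FPKM in WT eggs. No tested RNA polymerase I gene was called, with differences between -0.03 for Polr1e and 0.46 for Polr1c.

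In knockout material 17 of 33 tested members were called at the same step, 14 lower and 3 higher, with a median of -0.32, against 0.09 over 8305 genes. Over all genes 49.2% were called, 29.2% as higher, and 1665 genes were lower. Nop14, Wdr12 and Rrp1 passed only through the eggs and Polr1d and Bysl only through the early embryos. Among the 28 members at FPKM 1 in 1 or more libraries of both groups 11 fell and 1 rose, a share not computed over all genes. Gnl2 and Nop58, within the 28, also needed the eggs to pass, as too few early embryos reached FPKM 1. Nhp2, also within the 28, reached FPKM 1 in 2 KO eggs and needed the early embryos to pass. The adjusted p given below for Gnl2 and Nhp2 is not free of that selection. Gnl2 averaged 0.920 ± 0.374 FPKM in MZ-KO early embryos (n = 6) and 5.59 ± 0.173 FPKM in KO eggs (n = 3, SD; -1.80, adjusted p = 3.0e-05). Nop56 fell by 1.63 (adjusted p = 2.8e-05), Utp3 by 1.56 (adjusted p = 0.00014) and Nhp2 rose by 1.62 (adjusted p = 0.00028). Rrp1, Utp15, Bysl and Polr1d were called in knockout material and not in WT, and Npm1, Rrp8, Rrp9 and Wdr43 in WT and not in knockout material. Wdr12 was called in knockout material (-1.11, adjusted p = 0.00099 without a filter) and did not pass the filter in WT, where it stood at 0.313 ± 0.121 FPKM in early embryos and 0.954 ± 0.185 FPKM in eggs. Whether the steps differ between genotypes was tested as an interaction, given further on, and no member passed it.

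Between early and late embryos in WT, the comparison that spans the main activation of the embryonic genome, 40 of 43 tested members rose and 0 fell. The median log2 difference was 1.90, against 0.26 over the 9319 genes tested, of which 46.6% rose and 38.4% fell. In 9 of the 43 members no early embryo reached FPKM 1, so they passed the filter only through the late group and had to differ. These were Polr1b, Ddx21, Bop1, Gnl2, Noc2l, Rrp15, Nob1, Nop14 and Rrp12, and the adjusted p printed for any of them below is from the fit without a filter. Of the 34 members at FPKM 1 in 1 or more libraries of both groups 31 rose, a share not computed over all genes. Among these, Ubtf, Nop2, Nop16, Polr1e, Nop58, Noc3l, Rrp1 and Utp6 also needed the late group to pass. Fewer of their early embryos reached FPKM 1 than the filter asks for. The adjusted p printed for those below is from the filtered fit and is not free of that selection. Without a filter 45 of 49 rose, where 8111 of all 35462 genes rose and 7713 fell. Among all tested members the 3 not called were Noc4l (0.40, adjusted p = 0.0698), Rrp1b (-0.25, adjusted p = 0.317) and Rrp8 (-0.33, adjusted p = 0.118), and median-ratio scaling called Noc4l.

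All 5 tested genes of RNA polymerase I and its factor rose. Polr1c had 60.016, 86.3 and 151 FPKM as the lowest, median and highest WT late embryo, and 0.979, 2.19 and 6.80 FPKM in WT early embryos. There was no overlap, and the difference was 4.75 (SE 0.28, adjusted p = 2.2e-10). Polr1e averaged 26.5 ± 3.77 FPKM in WT late embryos and 0.930 ± 0.146 FPKM in WT early embryos (3.83, adjusted p = 4.1e-13). Ubtf, which opens ribosomal DNA for RNA polymerase I, rose to 6.21 ± 1.21 FPKM, against 0.417 ± 0.300 FPKM in WT early embryos (2.35, adjusted p = 3.5e-10, SD, n = 6 and 8). The large subunit gene Polr1b rose by 1.26 (adjusted p = 2.7e-06 without a filter), to 1.82 ± 0.830 FPKM. Polr1a, the gene of the largest subunit, stayed below the filter, with 0.692 to 1.43 FPKM in WT late embryos and 0.057 to 0.145 FPKM in WT early embryos.

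All 6 tested genes of the box C/D and box H/ACA particles rose as well. Nhp2 had 147, 190 and 230 FPKM as the lowest, median and highest WT late embryo, against 6.63, 7.57 and 12.5 FPKM in WT early embryos (4.37, SE 0.15, adjusted p = 1.4e-12). All WT late values lay above all WT early values. Nhp2 overlaps Rmnd5b on the other strand, whose FPKM was 9.12 ± 2.60 in WT late and 0.522 ± 0.312 in WT early embryos. Nop10 rose by 3.33 (adjusted p = 8.3e-09), Dkc1 by 2.02 (adjusted p = 1.4e-07), Nop58 by 2.64 (adjusted p = 5.9e-10), Nolc1 by 2.33 (adjusted p = 1.4e-08) and Nop56 by 1.58 (adjusted p = 9.3e-06). The helicase Ddx21 averaged 7.69 ± 1.52 FPKM in WT late embryos and 0.588 ± 0.188 FPKM in WT early embryos (2.44, adjusted p = 8.9e-10 without a filter). Npm1 rose by 1.45 and Ncl by 1.05, the smallest changes of these classes.

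Of the small subunit genes 13 of 14 tested rose. Rrp9 rose by 3.64 (adjusted p = 9.9e-10) and Nob1, the nuclease that makes the mature end of the small subunit rRNA, by 3.60 (adjusted p = 1.2e-10 without a filter), with 16.3 ± 3.71 FPKM in WT late and 0.414 ± 0.170 FPKM in WT early embryos. Utp3, which had fallen between egg and early embryo, rose by 3.07 to 69.7 ± 23.4 FPKM, against 7.20 ± 1.67 FPKM in WT early embryos. The other 10 rises lay between 1.15 for Wdr43 and 2.50 for Utp15.

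Of the large subunit genes 13 of 15 tested rose, and Nop16 had the largest difference of all members. It had 63.8, 85.5 and 91.4 FPKM as the lowest, median and highest WT late embryo and 0.033, 0.569 and 1.46 FPKM in WT early embryos. The groups were far apart (5.66, SE 0.20, adjusted p = 1.2e-12). Nop2, the cytosine methyltransferase of the large rRNA, rose by 3.58 (adjusted p = 9.9e-11) and Noc2l by 3.00 (adjusted p = 5.6e-11 without a filter). Noc2l overlaps Samd11, which rose with it in the table, to 4.88 ± 0.446 FPKM in WT late embryos, against 0.0525 ± 0.0629 FPKM. The smallest rise was that of Pes1 (0.49, adjusted p = 0.00547), whose groups overlapped.

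MZ-KO embryos made the same step with 38 higher and 0 lower of 43 tested, a median of 1.80 against 0.39 over 8944 genes, of which 48.3% were higher and 33.3% lower. Here 11 members, Nop16 among them, passed the filter only through the late group. Of the 32 at FPKM 1 in 1 or more libraries of both groups 27 rose, a share not computed over all genes. Some of the 32, Polr1c among them, also needed the late group to pass. Nop16 rose by 5.73 (adjusted p = 3.4e-10 without a filter), to 34.7, 57.2 and 76.0 FPKM as the lowest, median and highest MZ-KO late embryo, with at most 0.132 FPKM in MZ-KO early embryos. Polr1c rose by 5.36 (adjusted p = 1.4e-11) and Nhp2 by 4.68 (adjusted p = 2.9e-10). Ddx18 (0.08, adjusted p = 0.656) and Utp18 (0.25, adjusted p = 0.194) were not called in MZ-KO, while in WT Ddx18 rose by 0.96 (adjusted p = 3.1e-07) and Utp18 by 1.39 (adjusted p = 7.0e-09); both steps are set against each other in the interaction test given further on.

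**Figure D2:**
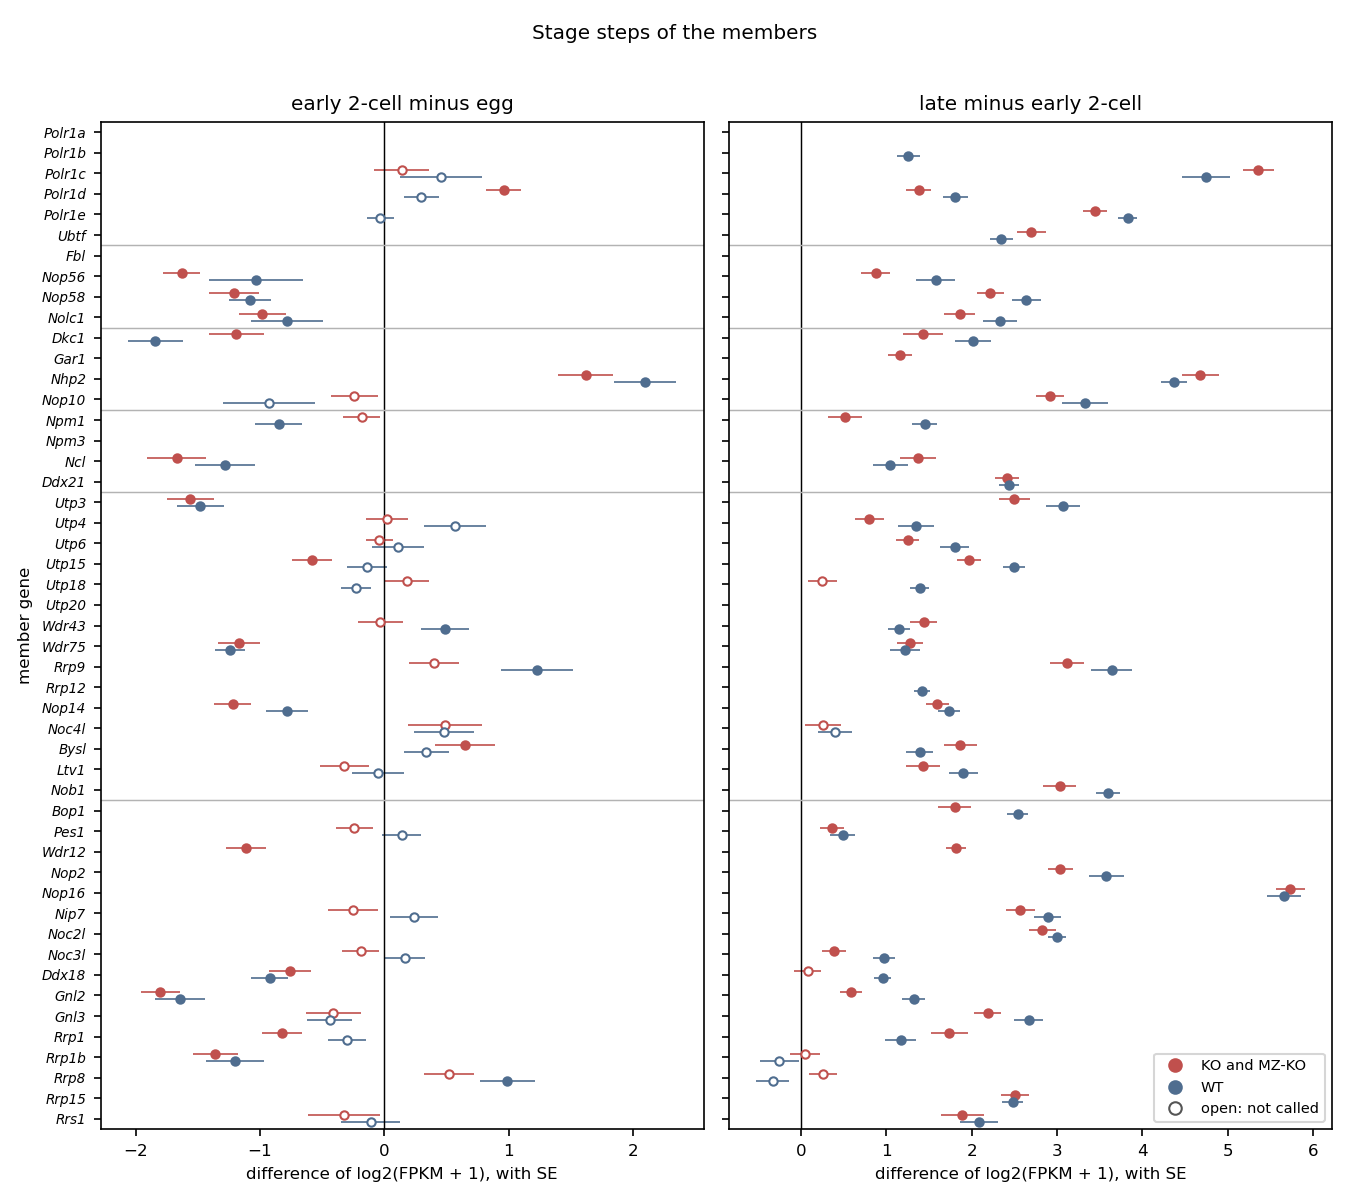
Points give the log2(FPKM + 1) difference of each tested member with its SE, for the egg to early step on the left and the early to late step on the right, in knockout material (red) and WT (blue); open points were not called. The left panel holds changes on both sides of 0, and the right panel has 40 called rises in WT and 38 in MZ-KO, with Nop16 farthest right at 5.66 and 5.73.

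**Figure D3:**
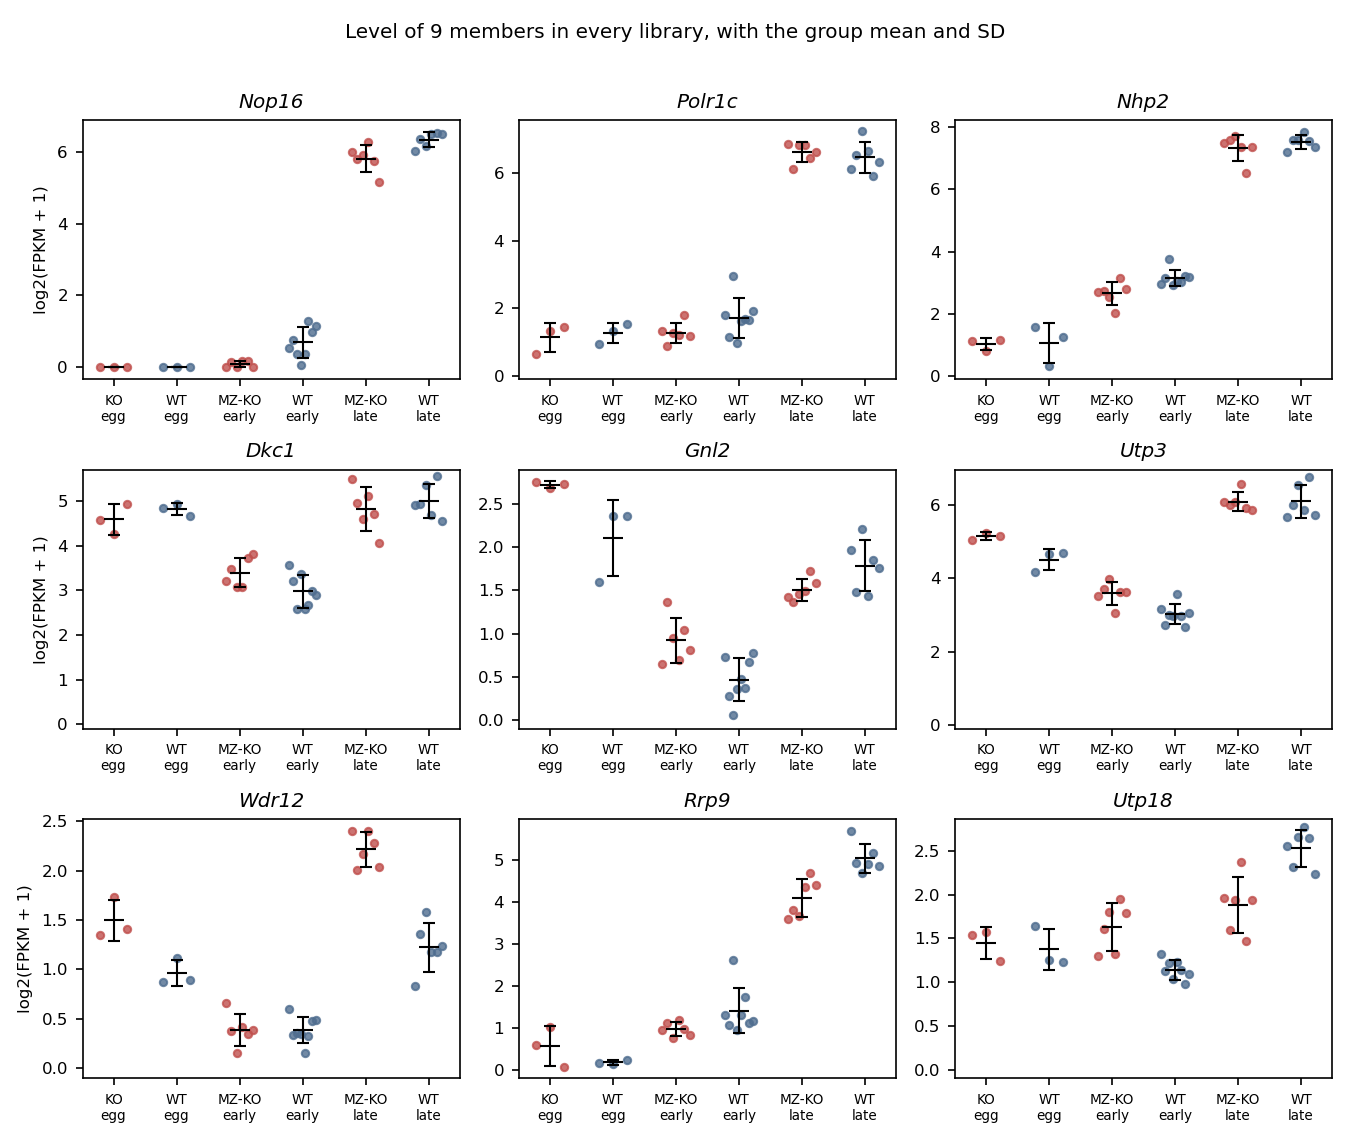
Log2(FPKM + 1) of 9 members in every library (points), with the group mean and SD (black), knockout groups red and WT groups blue. Nop16 lies near the floor until the late stage, Polr1c and Nhp2 are highest there, Dkc1, Gnl2 and Utp3 dip in early embryos, and Wdr12, Rrp9 and Utp18 separate or nearly separate MZ-KO from WT late embryos.

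The genotype comparison in late embryos gave 12 lower and 1 higher member among 46 tested, that is 26.1% and 2.17%. Over all 8772 genes 13.4% were lower and 18.5% higher in MZ-KO, and the medians were -0.21 for the members and 0.07 for all genes. Median-ratio scaling moved the median of all genes to -0.17 and that of the members to -0.51, and then 20 of 45 were lower and 1 higher. Over all 8432 genes tested under that scaling 1993 were lower and 894 higher. With all 6 groups in 1 fit 16 were lower and 3 higher of 46, the higher ones being Wdr12, Rrp1b and Bysl. Over all 8772 genes that fit gave 1713 lower and 2249 higher. Against the median of all genes the members lay lower under both scalings, and the number called lower depended on the scaling.

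Wdr12 rose. It had 4.29, 3.01, 3.49, 4.29, 3.87 and 3.09 FPKM in the 6 MZ-KO late embryos, against 0.777, 1.57, 1.98, 1.26, 1.26 and 1.35 FPKM in the 6 WT late embryos. Each MZ-KO embryo lay above each WT embryo, and the difference was 0.99 (SE 0.15, adjusted p = 0.0005), 0.75 under median-ratio scaling, and called on leaving out each of the 12 libraries. Wdr12 forms the PeBoW complex of large subunit maturation with Bop1 and Pes1. Bop1 was lower, at 3.56 ± 1.21 FPKM in MZ-KO and 6.20 ± 1.10 FPKM in WT late embryos (-0.70, SE 0.22, adjusted p = 0.0282), though not without WT late library 1, 5 or 6. Pes1 had a difference of -0.36 (95% CI -0.74 to 0.01, adjusted p = 0.127). Wdr12 overlaps Carf on the other strand, which was at 0.205 ± 0.101 FPKM in MZ-KO and 0.190 ± 0.0697 FPKM in WT late embryos.

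Among small subunit genes 4 of 14 were lower and none higher. Rrp9 had 11.1, 13.1, 11.8, 19.5, 24.8 and 20.4 FPKM in MZ-KO late embryos, and 50.8, 29.6, 25.0, 29.1, 34.9 and 28.3 FPKM in WT late embryos. The groups met without overlap between 24.8 and 25.0 FPKM (-0.95, SE 0.23, adjusted p = 0.00748). Utp15 had 12.3, 8.996, 11.4, 10.6, 10.487 and 12.6 FPKM in MZ-KO late embryos and 17.027, 14.1, 18.3, 16.4, 20.6 and 16.7 FPKM in WT late embryos. These too did not overlap (-0.59, SE 0.14, adjusted p = 0.00616). Utp18 averaged 2.76 ± 0.850 FPKM in MZ-KO and 4.84 ± 0.827 FPKM in WT late embryos (-0.65, SE 0.18, adjusted p = 0.0135). Utp6 was the weakest call (-0.48, adjusted p = 0.0476) and was kept in 3 of 12 fits that each left out 1 library. The highest difference of the class was that of Bysl (0.44, adjusted p = 0.0834). The 3 members without overlap between the genotypes were Wdr12, Rrp9 and Utp15, while 13.7% of all genes showed no overlap.

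In the large subunit pathway 5 of 16 were lower. Nop2 had 5.79, 7.83 and 11.6 FPKM as the lowest, median and highest MZ-KO late embryo and 9.77, 14.2 and 22.3 FPKM in WT late embryos, with overlap at the edges (-0.79, SE 0.22, adjusted p = 0.017). Noc3l averaged 1.34 ± 0.483 FPKM in MZ-KO and 2.72 ± 0.722 FPKM in WT late embryos (-0.67, adjusted p = 0.0131, SD, n = 6 each). Nop16 (-0.53, adjusted p = 0.0386) and Ddx18 (-0.52, adjusted p = 0.0312) were called too, and 8 and 5 of the 12 single-library omissions ended those calls. Nip7, the most abundant large subunit member in exon-scaled terms, missed the threshold (-0.46, 95% CI -0.82 to -0.09, adjusted p = 0.0539).

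Box C/D genes fell in 2 of 4 cases. Nop56 had 20.012, 28.7 and 40.7 FPKM as the lowest, median and highest MZ-KO late embryo, against 39.3, 43.5 and 66.0 FPKM in WT late embryos, so that 1 MZ-KO embryo reached into the WT range (-0.71, SE 0.19, adjusted p = 0.0122). It hosts snoRNA genes and overlaps Idh3b, which stood at 9.53 ± 2.50 FPKM in MZ-KO and 9.88 ± 2.44 FPKM in WT late embryos. Fbl was lower at low level, 0.508 ± 0.326 FPKM in MZ-KO and 1.61 ± 0.675 FPKM in WT late embryos (-0.78, SE 0.20, adjusted p = 0.0113). It reached FPKM 1 in 5 WT embryos and 1 MZ-KO embryo, so it passed the filter only with the WT group, where it was higher. None of 4 box H/ACA genes was called, with differences between -0.19 for Nhp2 (95% CI -0.60 to 0.22) and 0.25 for Nop10 (95% CI -0.08 to 0.58). Of the polymerase genes 1 of 5 was lower, Polr1e, with 17.8 ± 2.79 FPKM in MZ-KO and 26.5 ± 3.77 FPKM in WT late embryos (-0.55, SE 0.15, adjusted p = 0.0129). Polr1c differed by 0.15 (95% CI -0.31 to 0.62). Under median-ratio scaling the differences of Nop10 and Polr1c were below 0, at -0.07 and -0.16. Abundant nucleolar proteins gave no call, with Npm1 at -0.46 (adjusted p = 0.134) and Ncl at 0.37 (adjusted p = 0.217).

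**Figure D4:**
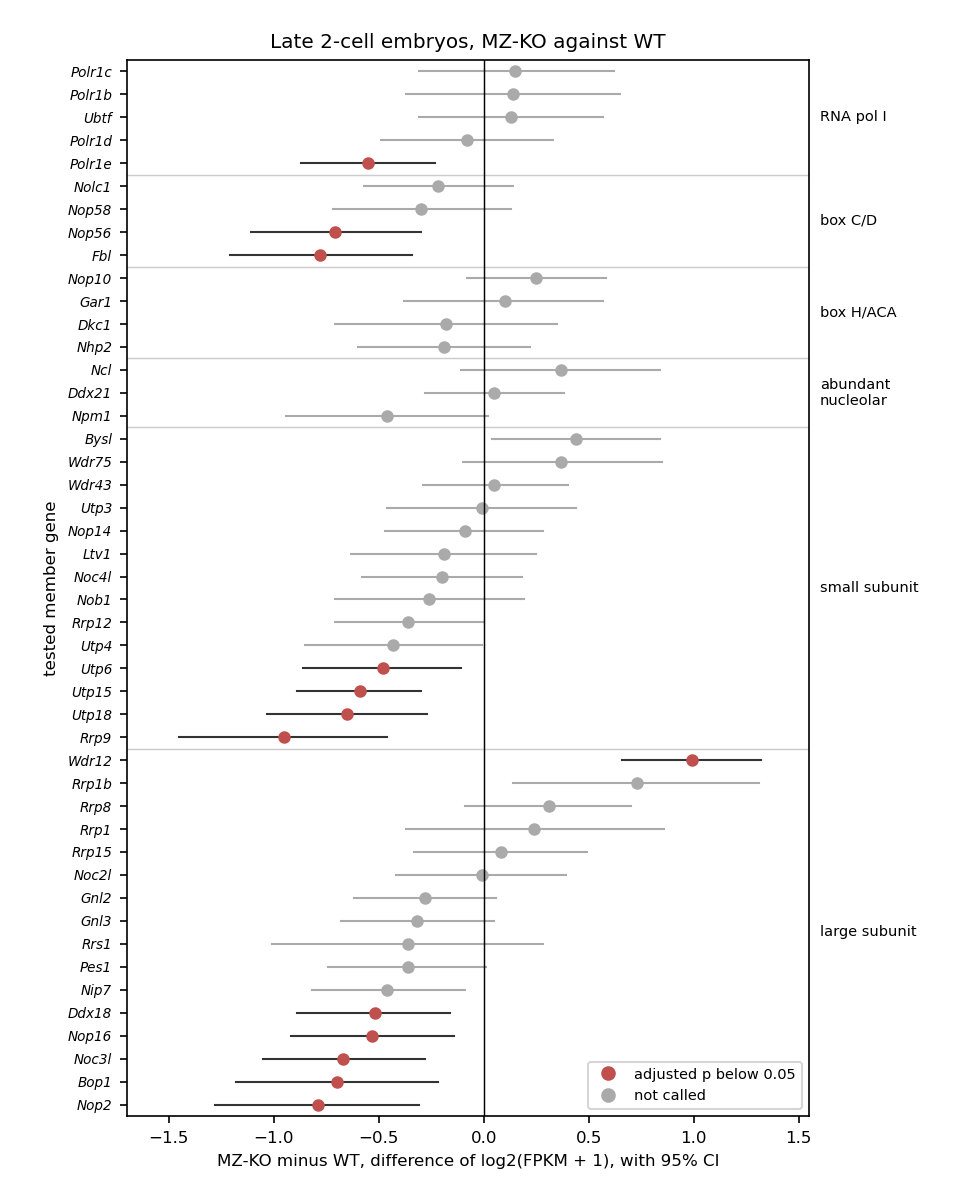
MZ-KO minus WT difference of log2(FPKM + 1) in late 2-cell embryos for the 46 tested members, sorted within each role, with 95% confidence intervals. The 12 called lower members (red, left) run between -0.95 for Rrp9 and -0.48 for Utp6, and Wdr12 at 0.99 is the 1 red point on the right.

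In early embryos 2 of 27 tested members were higher in MZ-KO and 0 lower, where 2.58% of all 7675 genes were higher and 0.704% lower. The medians were 0.07 and 0.05. Utp18, a WD-repeat protein of the processome, had 1.45, 2.04, 2.498, 1.503, 2.88 and 2.46 FPKM in the 6 MZ-KO early embryos, against 0.964, 1.19 and 1.51 FPKM as the lowest, median and highest of 8 WT early embryos. The lowest 2 MZ-KO embryos lay within the WT range (0.49, SE 0.11, adjusted p = 0.0319). Npm1 averaged 9.82 ± 1.02 FPKM in MZ-KO and 6.81 ± 1.25 FPKM in WT early embryos (0.48, SE 0.12, adjusted p = 0.0371, SD, n = 6 and 8), and median-ratio scaling raised its adjusted p to 0.0757. Both calls were fragile to single libraries, and 7 of 14 omissions kept Utp18 and 3 of 14 kept Npm1. At an unadjusted p below 0.05 stood 10 members, or 37.0% of those tested, against 21.3% of all genes. Of the 8 of them that were not called, Nhp2 alone had a negative difference (-0.49, adjusted p = 0.11).

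In eggs no member passed, and 6 of 32 had an unadjusted p below 0.05, which 8.73% of all 6607 genes had; 0.333% of genes were called there. Of the 32 tested, 25 differences were above 0, against 58.2% of all genes, with medians of 0.23 and 0.06. WT egg library 1 had the lowest sum over all members, 246.8 FPKM, against 296.0 and 286.2 FPKM in the other WT eggs. KO eggs held 309.2 to 352.6 FPKM. The part of that library in the differences was not tested. The 6 with an unadjusted p below 0.05 were Utp4, Utp3, Wdr12, Gnl2, Ltv1 and Nop14, all higher in KO eggs. Utp4 had 3.01, 3.28 and 2.44 FPKM in KO eggs and 1.33, 1.66 and 1.42 FPKM in WT eggs (0.66, SE 0.17, adjusted p = 0.299). Wdr12 had 1.54, 2.33 and 1.66 FPKM in KO eggs and 0.833, 1.17 and 0.863 FPKM in WT eggs (0.53, adjusted p = 0.464). Groups of both genes were separate, as were those of 8 members in all, and 15.5% of all genes were separate between the egg groups. With 3 eggs a group, differences of this size did not pass the adjustment.

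Whether the genotype difference changed between early and late embryos was tested directly, as the late difference minus the early one over 4 groups. Of 46 tested members 8 were lower and 1 higher, with 8.40% and 12.0% over 11558 genes and medians of -0.35 and 0.06. With a pseudocount of 0.1 the calls of Bop1, Fbl, Noc3l and Utp15 were lost and 5 remained, where 1871 of all 11558 genes were called. Median-ratio scaling gave 19 calls, where 2546 of all 11207 genes were called. Utp18 changed most (-1.14, SE 0.19, adjusted p = 0.00018), being higher in MZ-KO early embryos (0.49) and lower in MZ-KO late embryos (-0.65). Npm1 followed the same pattern (-0.94, adjusted p = 0.00723), with 0.48 in early and -0.46 in late embryos, of which the late value was not called. Ddx18 (-0.88, adjusted p = 0.00122), Fbl (-0.75, adjusted p = 0.00966), Bop1 (-0.74, adjusted p = 0.0198), Gnl2 (-0.73, adjusted p = 0.00919), Noc3l (-0.58, adjusted p = 0.0343) and Utp15 (-0.52, adjusted p = 0.0315) were also lower. Wdr12 was the member with a positive change (0.99, SE 0.15, adjusted p = 7.7e-05), and its level in early embryos was 0.318 ± 0.150 FPKM in MZ-KO and 0.313 ± 0.121 FPKM in WT. Fbl, Bop1 and Wdr12 reached FPKM 1 in no early embryo, so they passed the filter only through late embryos. Gnl2 and Noc3l also needed the late embryos, as too few early embryos reached FPKM 1. The adjusted p printed for all of these is from the filtered fit and is not free of that selection. Without a filter 7 of the member calls of this test were kept and 2 were lost. Fbl averaged 0.0203 FPKM in MZ-KO and 0.0376 FPKM in WT early embryos. The same libraries enter this test and the 2 comparisons it joins. Between egg and early embryo none of 35 tested members passed, where 0.351% of all genes did, and 6 had an unadjusted p below 0.05, against 11.9% of all 9676 genes.

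**Figure D5:**
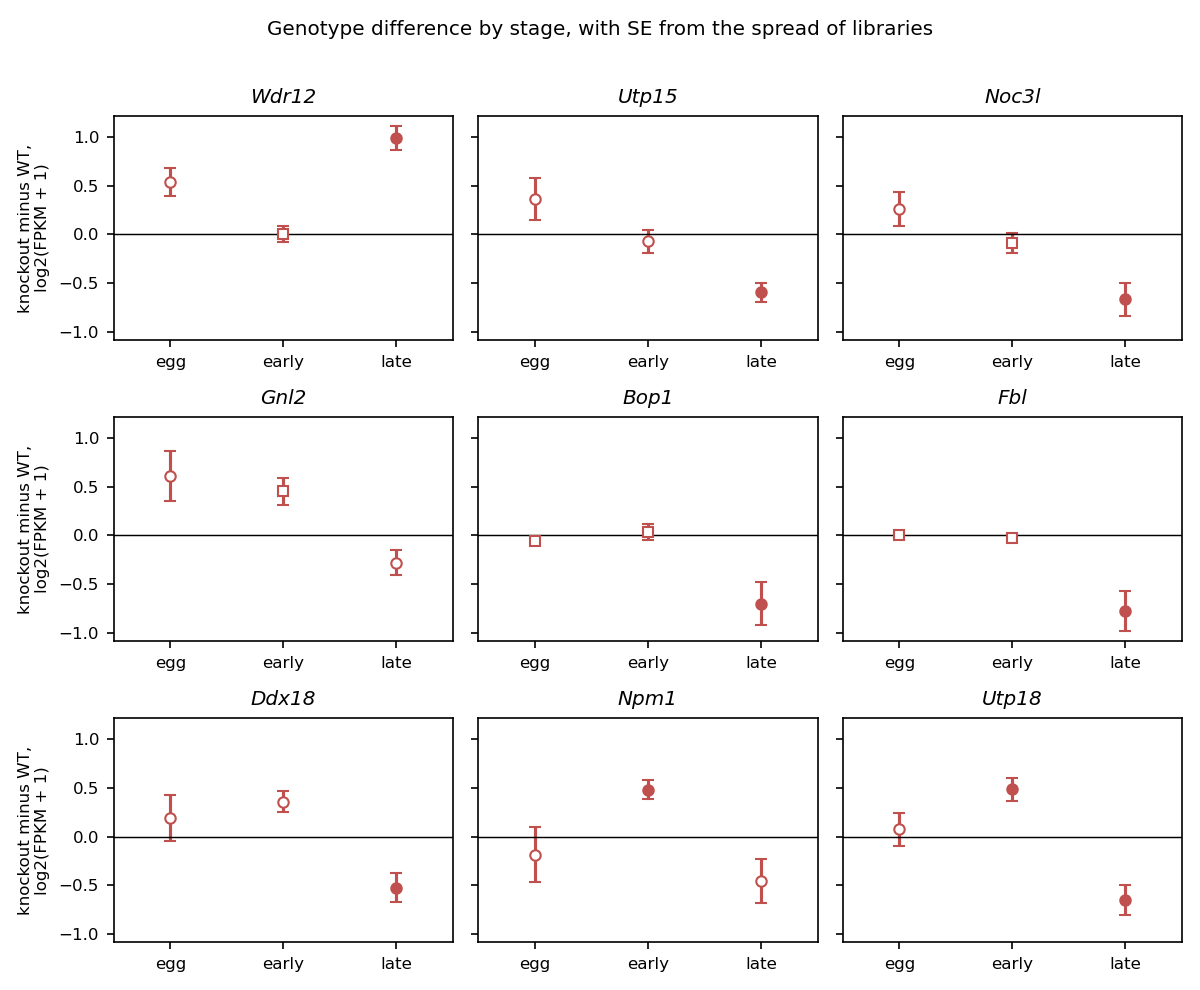
Knockout minus WT difference of log2(FPKM + 1) at each stage for the 9 members whose genotype difference changed between early and late embryos, with SE from the spread of libraries. Filled points were called at that stage, open circles were tested and not called, and open squares did not pass the filter, and the changes of Bop1, Fbl, Noc3l and Utp15 were not called with a pseudocount of 0.1. Utp18 is called on both sides of 0, at 0.49 in early and -0.65 in late embryos.

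Other genes of the pathway, 114 listed by role and found in the table, moved with the members at the stage step. Between early and late WT embryos 84 of 97 tested rose and 6 fell, or 86.6% and 6.19%, against 46.6% and 38.4% of all genes. Any gene that passed the filter only through 1 of the 2 groups had to differ, and such genes were not set apart in these counts. Znhit3, a factor of box C/D particle assembly, averaged 322 ± 101 FPKM in WT late embryos and 3.67 ± 4.39 FPKM in WT early embryos (6.36, adjusted p = 3.0e-10). Wdr74 rose by 5.10, Utp23 by 4.90 and the polymerase subunit Cd3eap by 4.37. The deepest fall was that of Riok1, a kinase of small subunit maturation, with 0.974 ± 0.482 FPKM in WT late and 23.1 ± 5.36 FPKM in WT early embryos (-3.61, adjusted p = 6.6e-11). Mxd1 and Max, of the Myc network, fell by 2.50 and 2.00, and Rsl1d1 fell by 0.88. Znhit3, Cd3eap and Riok1 overlap Myo19, Ercc1 and Cage1 on the other strand, and reads of such pairs cannot be told apart.

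In late embryos 16 of 102 tested pathway genes were lower in MZ-KO and 11 higher, or 15.7% and 10.8%, against 13.4% and 18.5% of all genes, so the counts called lie near or below those over all genes. Ddx56, a nucleolar helicase, averaged 8.06 ± 1.80 FPKM in MZ-KO and 24.6 ± 2.86 FPKM in WT late embryos (-1.51, adjusted p = 6.2e-05). Nsun5, which methylates the large rRNA, averaged 9.47 ± 2.08 FPKM and 27.7 ± 3.86 FPKM in the same order (-1.47, adjusted p = 7.6e-05). Utp14b fell by 1.21 and Dimt1, the dimethyltransferase of the small rRNA, by 1.20 (adjusted p = 0.00017). On the other side Ngdn averaged 24.3 ± 5.82 FPKM in MZ-KO and 8.80 ± 2.92 FPKM in WT late embryos (1.40, adjusted p = 0.00096). Tsr2 rose by 1.37, Dnttip2 by 1.20 and Rpf2, which brings the smallest large-subunit rRNA into the particle, by 1.02. Utp14b overlaps Acsl3 on the same strand, and Dimt1, Nsun5 and Tsr2 overlap Kif2a, Pom121 and Fgd1 on the other strand. Reads of such pairs cannot be told apart, and the part of the overlap in these differences was not tested. In early embryos 3 of 60 were higher in MZ-KO, where 2.58% of all 7675 genes were higher. These were Imp4 (0.82, adjusted p = 0.0344), Brix1 (0.76, adjusted p = 0.0263) and Sbds (0.72, adjusted p = 0.0461). None of 57 tested in eggs was called, where 0.333% of all genes were.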

How the data were processed

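Levels were taken from the authors' deposited table of FPKM values for 32 libraries. The authors worked with build mm10, TopHat2, DESeq and DESeq2, per the submitters' processing notes, and the counting settings are not given in the sources used here. With the genomic span as length, 99.36% or more of the low values of each library came to whole reads (tolerance 0.1 read, genes up to 2000 bp); introns therefore count as length, and reads of overlapping genes mix. The authors' deposited log2 fold change and p-value columns name no groups and were not used here, and 2 further value columns were not used. Column names give the group and no replicate number. The letters of the header of the MZ-KO late columns are transposed, and their mean matched the authors' mean column within 3.3e-06.

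Each comparison was fitted over the whole table with limma 3.58.1 (R 4.3.3, trend, robust empirical Bayes with statmod 1.5.0) on log2(FPKM + 1), for genes that reached FPKM 1 in as many libraries as the smallest group holds, with Benjamini-Hochberg adjustment over all genes tested and calls at an adjusted p below 0.05. The procedure was tested on simulated data. The unit is not a count, hence limma. Exon-scaled levels are FPKM times genomic span over exon length (GENCODE release M 21), and all but 37 of the 54532 identifiers were found there. Motifs were read in RefSeq promoter windows of GRCm38.p6. Alternatives were a pseudocount of 0.1, no filter, filters of FPKM 5 or 20 reads, median-ratio scaling, 1 fit over all 6 groups, and leaving out each library. Members, role lists, other pathway genes and tests were chosen with earlier results of these data known, and the role lists describe and support nothing by themselves. Any member could be named, and other genes of the pathway only among the 4 largest called changes in each direction. Further tools were matplotlib 3.10.9, pandas 2.3.3, numpy 2.4.6 and Python 3.11.15.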

Additional observations from a re-analysis of the deposited data

Results flagged for a closer look

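Single libraries stood apart in 16 member and group combinations, judged by the gap of the highest or lowest library against the range of its group (Dixon's criterion at 95%), which chance meets in about 1 of 20 groups. WT early library 3 was the highest of its group in 6 of them: Polr1c at 6.803 FPKM (others 0.979 to 2.749), Nhp2 at 12.5 (6.633 to 8.254), Rrp9 at 5.134 (0.947 to 2.309), Ubtf at 1.119 (0.17 to 0.442), Nop2 at 1.069 (0.061 to 0.359) and Rrp12 at 0.269 (0.016 to 0.076). All 6 of these genes rose between early and late WT embryos. Without that library 40 of 43 members rose at that step and 0 fell, as with it.

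In the other WT groups, Polr1b (3.449 FPKM) and Ltv1 (19.331 FPKM) were highest in late library 3, Rrp12 (1.093 FPKM) lowest in late library 6 and Rrp1 (0.564 FPKM) lowest in early library 5. In MZ-KO early embryos Nop10 was lowest in library 1 (19.112 FPKM) and Nop2 highest in library 3 (0.289 FPKM). In MZ-KO late embryos Utp3 was highest in library 4 (93.89 FPKM), Gnl3 in library 1 (51.927 FPKM) and Rrs1 in library 5 (20.81 FPKM), and Noc4l was lowest in library 2 (17.424 FPKM).

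The genotype difference changed between early and late embryos, by the test of that change, for Wdr12 (0.99), Utp18 (-1.14), Npm1 (-0.94), Ddx18 (-0.88), Fbl (-0.75), Bop1 (-0.74), Gnl2 (-0.73), Noc3l (-0.58) and Utp15 (-0.52).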

How the results depend on the processing

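Over the called members, 2382 refits under the alternatives kept direction and call, 126 kept the direction and lost the call, and none reversed. Among late embryos the members called between genotypes numbered 13, and 8 without a filter, 7 with a filter of FPKM 5, 21 with median-ratio scaling (20 of them lower), 19 with all 6 groups in 1 fit (16 of them lower) and 10 to 14 on leaving out single libraries; Fbl did not pass the filter under that scaling. Early embryos gave 2 calls between genotypes, and 0 without a filter, 1 with a filter of 20 reads, 1 with median-ratio scaling and 0 to 3 on leaving out single libraries. A call of 0 was left by omitting MZ-KO early library 2, 3, 5 or 6 or WT early library 4, 7 or 8. A filter of FPKM 5 left fewer members to test and gave 9 calls (of 12 tested) for WT early embryos against eggs, 26 (of 28) for WT late against early embryos, 9 (of 14) for MZ-KO early embryos against KO eggs and 25 (of 27) for MZ-KO late against early embryos. The change of the genotype difference between early and late embryos had 9 calls, of which 2 were lost without a filter. It had 19 under median-ratio scaling, 2 where FPKM 5 was the filter and 5 where 0.1 was the pseudocount. The cause was not tested. Leaving out single libraries gave 13 to 18 calls for WT early embryos against eggs, 40 to 42 for WT late against early embryos, 15 to 19 for MZ-KO early embryos against KO eggs, 37 to 39 for MZ-KO late against early embryos, 7 to 10 for that change of the genotype difference, and 0 for eggs and for the change between egg and early embryo. No paired analysis was possible because the columns carry no replicate numbers. Read counts were smallest for Npm3 and Fbl, with 0 and 12 reads in the late library lowest for each. The shallowest late library, MZ-KO late library 6, held 6 and 72 reads of them.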
